A study of Mus musculus with 48 samples.

Results

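Livers of 24 gonadectomized (GDX) mice were compared by the gonads with which the mice were born, in 24 of the 48 RNA-seq libraries of the series. The libraries were those whose treatment label names both a high-fat diet (HFD) and gonadectomy. The mice belonged to the FCG model, named for its core genotypes, on a C57BL/6 background, in which the testis-determining gene Sry has been deleted from the Y chromosome (Y-) and put back as an autosomal transgene (SryTg), so that gonads and sex chromosomes are inherited separately. XX and XY- mice without SryTg develop ovaries and are called Ov, and XX;SryTg and XY-;SryTg mice develop testes and are called Te. After GDX there were 6 mice in each of the 4 genotypes, which gave 12 mice born with ovaries against 12 born with testes, with the XX or XY background as a covariate. All 24 had kept their gonads until 75 days of age, were fed a diet with 60% of calories from fat for 15 weeks by the labels, and were fasted before the liver was taken. The other 24 libraries were the same 4 genotypes with intact gonads after 11 weeks of HFD, so that GDX and the length of feeding cannot be told apart between the cohorts. The carriage of SryTg and the former testes coincide in every mouse, and the effects of the transgene itself and of the gonad cannot be told apart either. The comparison asks what is left of the gonadal difference in the liver once the gonads are gone.

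Sex differences of the adult mouse liver are known to be set mainly by gonadal hormones and by the secretion of growth hormone, which is pulsatile in males and more continuous in females. In hepatocytes growth hormone acts through the transcription factor STAT5b, with Bcl6 as a repressor that is more abundant in males and Cux2 as a factor that is more abundant in females. The best known targets are cytochrome P450 enzymes, sulfotransferases and major urinary proteins (MUPs), and many of them metabolize steroids.

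The libraries of the GDX mice held 13071874 to 19638619 reads counted on genes, with medians of 16148085 in Ov and 16199844.5 in Te. Levels are given as CPM, the counts per 1000000 reads counted on genes, and 3 reads, the smallest count taken as shown, corresponded to 0.153 to 0.229 CPM. Sry had no read in any of the 24 Ov libraries of the series. In GDX Te mice it had 0 to 3 reads, and 4 of these 12 libraries were at 0, so liver reads could not check the transgene. Xist and Ddx3y matched the labelled chromosomes in all GDX mice. Xist, the RNA that silences an X chromosome, was at 865 CPM or more in XX mice and at 8.36 CPM or less in XY mice, while the Y-linked Ddx3y was at 52.1 CPM or more in XY mice and at 1.53 CPM or less in XX mice. The summed level of 16 hepatocyte markers was 123300 to 161200 CPM in Ov and 125600 to 157000 CPM in Te, and 7 of 12 pancreatic acinar markers had no read. The first principal component held 58.3% of the variance and separated XX from XY mice, not Ov from Te, and 49.2% of the genes tested differed between XX and XY mice. Reads outside annotated genes were 8.52% to 10.06% in XX and 9.98% to 11.3% in XY mice. Markers of Kupffer cells and macrophages summed to medians of 672 (Ov) and 678 CPM (Te) in XX and 2105 and 1874 CPM in XY mice. The part of either in the XX and XY difference was not tested. One library stood apart in the genes considered here: XX Te mouse 69358 was the highest of the 24 mice for 15 of 25 tested genes known to be higher in male liver, and values that its absence moved are given beside the results.

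After GDX, 36 of 14857 tested genes differed between Ov and Te, 0.242% of the genes tested (edgeR's quasi-likelihood test, Benjamini-Hochberg adjusted p under 0.05). Among them 23 were higher in Ov (0.155% of the genes tested) and 13 were higher in Te (0.0875%). The called genes included cytochrome P450 genes. Of these, Cyp2a4, Cyp3a16, Cyp3a41a, Cyp3a41b and Cyp3a44 were higher in Ov, and Cyp2d9, Cyp7b1 and Cyp2u1 were higher in Te. The share of P450 genes among all tested genes was not counted. Reads of Cyp3a41a and Cyp3a41b are hard to assign, so their calls may not be separate. Over the 36 genes the absolute log2 fold change had a median of 1.03 and ran from 0.19 for the mitochondrial protein gene Acad9 to 5.21 for Cyp3a41a. In liver pieces, fewer cells of a type and less RNA per cell cannot be told apart. In intact mice the same comparison called 1658 of 14446 genes, 11.5% of those tested, with 860 higher in Ov and 798 in Te (790 and 395 when libraries were scaled by their totals). Without adjustment 1106 genes (7.44%) had a p under 0.05 after GDX. The number of calls after GDX was 66 by DESeq2, which included all 36, and 17 without the XX or XY covariate. It was 22 without XY Te mouse 59091, the mouse whose absence lowered it most. The intact count was 2538 without XX Te mouse 14614.

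**Figure D1:**
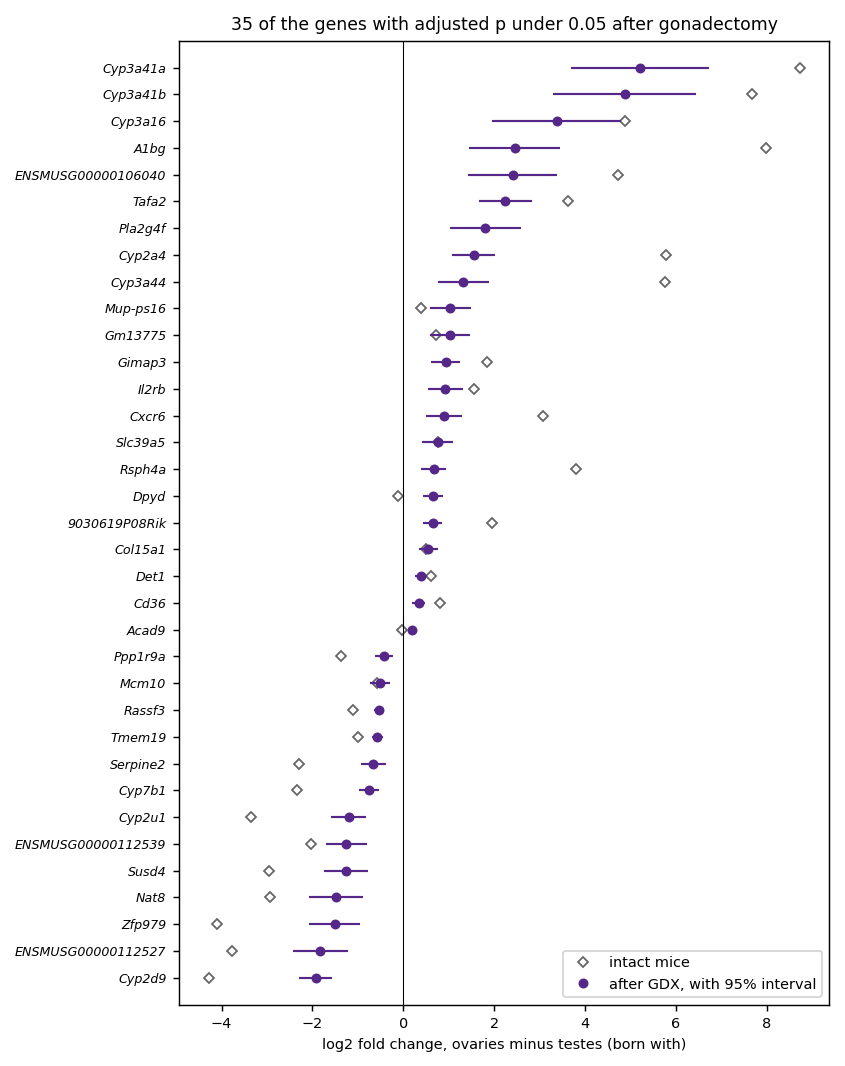
Log2 fold change (x axis, Ov minus Te) of 35 of the 36 genes called after GDX, 1 gene per row. Filled circles with bars give the estimate and 95% interval in GDX mice and open diamonds the estimate in intact mice; in most rows with both, the diamond lies farther from 0 than the circle.

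For 7 called genes the 150 bases before the RefSeq start site (GRCm38.p6) are shown, because these genes include the 5 female-predominant P450 genes that were called, the strongest male-predominant P450 gene and the plasma protein gene A1bg. In all, 3 motifs were searched on both strands in the 250 bases upstream of every RefSeq gene start. The first was CAAAGTCCA, the sequence bound by the hepatocyte nuclear receptor HNF4. The others were TTCNNNGAA, the core of a STAT5 site, and TATAAA, the letters of a TATA box, counted at any position. They were in 0.384%, 7.02% and 12.4% of 32851 windows. Of the called genes, 24 of 33 with a symbol had a window. Capitals mark the motif matches, and the strand of the gene is given with each position.
Cyp3a41a, chr5:145720137-145720286, minus strand: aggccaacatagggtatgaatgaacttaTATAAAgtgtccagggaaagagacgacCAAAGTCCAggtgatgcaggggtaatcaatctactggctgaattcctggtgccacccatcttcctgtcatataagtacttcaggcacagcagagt
Cyp3a41b, chr5:145584731-145584880, minus strand: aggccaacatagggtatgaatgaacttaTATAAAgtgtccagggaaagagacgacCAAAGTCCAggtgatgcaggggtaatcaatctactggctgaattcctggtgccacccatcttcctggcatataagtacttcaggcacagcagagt
Cyp3a16, chr5:145469724-145469873, minus strand: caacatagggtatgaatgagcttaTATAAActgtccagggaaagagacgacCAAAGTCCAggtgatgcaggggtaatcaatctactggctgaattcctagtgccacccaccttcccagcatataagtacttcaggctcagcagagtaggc
Cyp3a44, chr5:145805875-145806024, minus strand: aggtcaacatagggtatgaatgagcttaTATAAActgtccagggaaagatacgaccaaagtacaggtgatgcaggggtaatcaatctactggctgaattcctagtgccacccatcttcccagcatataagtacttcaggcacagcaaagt
Cyp2a4, chr7:26307042-26307191, plus strand: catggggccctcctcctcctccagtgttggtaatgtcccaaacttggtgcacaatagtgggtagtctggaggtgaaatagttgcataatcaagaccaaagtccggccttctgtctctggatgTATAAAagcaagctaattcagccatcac
Cyp2d9, chr15:82452227-82452376, plus strand: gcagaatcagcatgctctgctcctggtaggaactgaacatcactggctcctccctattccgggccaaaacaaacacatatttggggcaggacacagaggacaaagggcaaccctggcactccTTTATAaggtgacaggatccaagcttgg
A1bg, chr15:60921271-60921420, minus strand: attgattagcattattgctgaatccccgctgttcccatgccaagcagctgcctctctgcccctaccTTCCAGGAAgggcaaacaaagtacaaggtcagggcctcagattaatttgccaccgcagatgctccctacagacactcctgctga
The sequences of the Cyp3a group are near copies of each other. Over 250 bases Cyp3a41a and Cyp3a41b were 99.6% identical, and Cyp3a41a shared 91.3% with Cyp3a16 and 94.4% with Cyp3a44. Cyp3a41a, Cyp3a41b and Cyp3a16 held CAAAGTCCA and Cyp3a44 had no match to it. TATAAA began at -122 from the start site in Cyp3a41a, Cyp3a41b and Cyp3a44 and at -126 in Cyp3a16. In Cyp2a4 it began at -28, as did its match on the other strand in Cyp2d9. TTCNNNGAA had a match in A1bg only among the windows of the called genes. These matches describe letters and were not tested as binding sites.

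The 3 largest log2 fold changes among the called genes were those of Cyp3a41a, Cyp3a41b and Cyp3a16. Enzymes of the Cyp3a family hydroxylate steroids and drugs, and these are known to be predominant in female liver. Cyp3a41a was at 0.828, 6.45 and 61.9 CPM (lowest, median and highest of 6 mice) in XX Ov and at 1.05, 6.67 and 9.96 CPM in XY Ov. In Te mice it was at 0.0644, 0.283 and 0.539 CPM in XX and at 0.0545, 0.187 and 0.464 CPM in XY, around the level of 3 reads. Every Ov mouse was therefore above every Te mouse, although Ov mice differed widely among themselves. The fitted log2 fold change was 5.21 (SE 0.735, edgeR adjusted p = 0.000931). It was 4.43 without the Ov mouse at the top, the lowest value when any 1 mouse was left out, and the call held in all 24 such fits. Intact mice had 0.272, 28.45 and 126.5 CPM in XX Ov and 0.0998, 0.49 and 2.38 CPM in XY Ov. Intact Te mice had at most 0.185 CPM in XX and 0.131 CPM in XY. The median of XX Ov mice was thus lower after GDX than in intact mice, and that of XY Ov mice was higher.

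Cyp3a41b had a log2 fold change of 4.87 (SE 0.764, edgeR adjusted p = 0.00221), with 0.127 to 18.1 CPM in Ov and 0 to 0.29 CPM in Te. Cyp3a16 had a log2 fold change of 3.37 (adjusted p = 0.0276), with 0.127 to 13.6 CPM in Ov and 0.109 to 0.524 CPM in Te, and Cyp3a44 had one of 1.32 (adjusted p = 0.0268). Ov and Te overlapped for all 3, and the calls of Cyp3a16 and Cyp3a44 held in 15 and 18 of 24 fits with 1 mouse left out. In XY Ov mice the medians of Cyp3a41b and Cyp3a16 were 0.114 and 0.337 CPM in intact mice and 1.95 and 1.23 CPM after GDX. That of Cyp3a44 was 3.33 CPM in intact mice and 1.645 CPM after GDX. In XX Ov mice the medians of all 3 genes were lower after GDX than in intact mice. Reads of these genes are hard to assign: only 1.4% of the 50-base stretches of the Cyp3a41a transcript and 6.54% of those of Cyp3a41b occurred in no other gene. The split of reads between these genes is therefore uncertain.

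Cyp2a4, a steroid 15-alpha-hydroxylase, was at 217, 289 and 485 CPM in XX Ov and at 286, 399 and 521 CPM in XY Ov. In Te mice it was at 19.7, 81.8 and 134 CPM in XX and at 117, 179 and 240 CPM in XY. In all, 11 of 12 Ov mice were above every Te mouse, and after TMM scaling the groups did not overlap. It was higher in Ov by a log2 fold change of 1.55 (SE 0.227, edgeR adjusted p = 0.00129), or 2.93-fold, against 5.77 in intact mice. Intact Te mice had 1.38 to 66.3 CPM and intact Ov mice 211 to 1268 CPM, and the gap between these ranges was filled after GDX. Of the 50-base stretches of the Cyp2a4 transcript, 63.5% occurred in no other gene.

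A1bg, a plasma protein of the immunoglobulin superfamily, was at 2.93, 27.1 and 91.2 CPM in XX Ov and at 6.42, 16.6 and 25.9 CPM in XY Ov. In Te mice it was at 0.894, 4.34 and 6.88 CPM in XX and at 1.82, 5.38 and 8.32 CPM in XY. Here 10 of 12 Ov mice were above every Te mouse. The log2 fold change was 2.45 (SE 0.48, edgeR adjusted p = 0.0229) and the call held in 19 of 24 fits with 1 mouse left out. In intact mice it was 7.98, and the difference between the cohorts passed the test (log2 -5.37, adjusted p = 6.12e-05).

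Tafa2, which encodes a secreted chemokine-like protein, was at 3.39, 6.09 and 8.83 CPM in XX Ov and at 3.23, 4.39 and 6.66 CPM in XY Ov. In Te mice it was at 0.305, 0.877 and 2.57 CPM in XX and at 0.243, 0.708 and 2.44 CPM in XY. Ov and Te did not overlap. Ov exceeded Te by a log2 fold change of 2.24 (SE 0.283, edgeR adjusted p = 0.000137), 4.72-fold, with 2.15 in XX and 2.33 in XY mice. It was 3.63 in intact mice, and the difference between cohorts did not pass the test (log2 -1.41, adjusted p = 0.0979).

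Among the genes higher in Te, Cyp2d9, a testosterone 16-alpha-hydroxylase, was at 104, 150 and 287 CPM in XX Te and at 61.6, 84.4 and 146 CPM in XY Te. It was at 27, 42.3 and 62 CPM in XX Ov and at 21.6, 23.9 and 25.2 CPM in XY Ov. Within each background Te mice were above all Ov mice, and over both backgrounds 1 Te mouse was just below the highest Ov mouse. Its log2 fold change was -1.93 (SE 0.175, edgeR adjusted p = 1.88e-06), 3.81-fold, with -1.92 in XX and -1.94 in XY mice. In intact mice, where Te mice had 293 to 680 CPM, it was -4.29, and the cohort difference passed the test (log2 2.33, adjusted p = 6.49e-08). Some 71% of the 50-base stretches of the Cyp2d9 transcript occurred in no other gene.

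Cyp7b1, the oxysterol 7-alpha-hydroxylase of the alternative bile acid pathway, was at 22.5, 32.2 and 45.5 CPM in XX Te and at 22.6, 26.6 and 35.1 CPM in XY Te. It was at 17.9, 19 and 20.2 CPM in XX Ov and at 13.5, 17.5 and 18.8 CPM in XY Ov, and Ov and Te did not overlap. This gave a log2 fold change of -0.76 (SE 0.102, edgeR adjusted p = 0.000334), against -2.35 in intact mice. Cyp2u1, which hydroxylates long-chain fatty acids, had a log2 fold change of -1.2 (SE 0.185, adjusted p = 0.00167), with 1.42 to 6.37 CPM in Ov and 3.96 to 20.4 CPM in Te. Ov and Te mice overlapped for Cyp2u1 over both backgrounds, and within each background they did not.

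Rassf3, of the Ras association domain family, and Tmem19, a transmembrane protein, had the lowest adjusted p together with Cyp2d9. Rassf3 was at 57.3, 64.7 and 69.4 CPM in XX Ov and at 54.2, 66.6 and 69.1 CPM in XY Ov, against 76.7, 90 and 115 CPM in XX Te and 81.3, 88.9 and 106 CPM in XY Te. Tmem19 was at 66, 77.4 and 80.9 CPM in XX Ov and at 69.7, 71.5 and 76.6 CPM in XY Ov, against 101, 104 and 141 CPM in XX Te and 94.2, 106 and 116 CPM in XY Te. Neither gene overlapped between Ov and Te. The log2 fold changes were -0.53 (SE 0.0537) and -0.58 (SE 0.0592), both with an edgeR adjusted p of 1.88e-06, and both genes passed in XX and in XY mice taken alone. In intact mice they were -1.11 and -0.99.

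**Figure D2:**
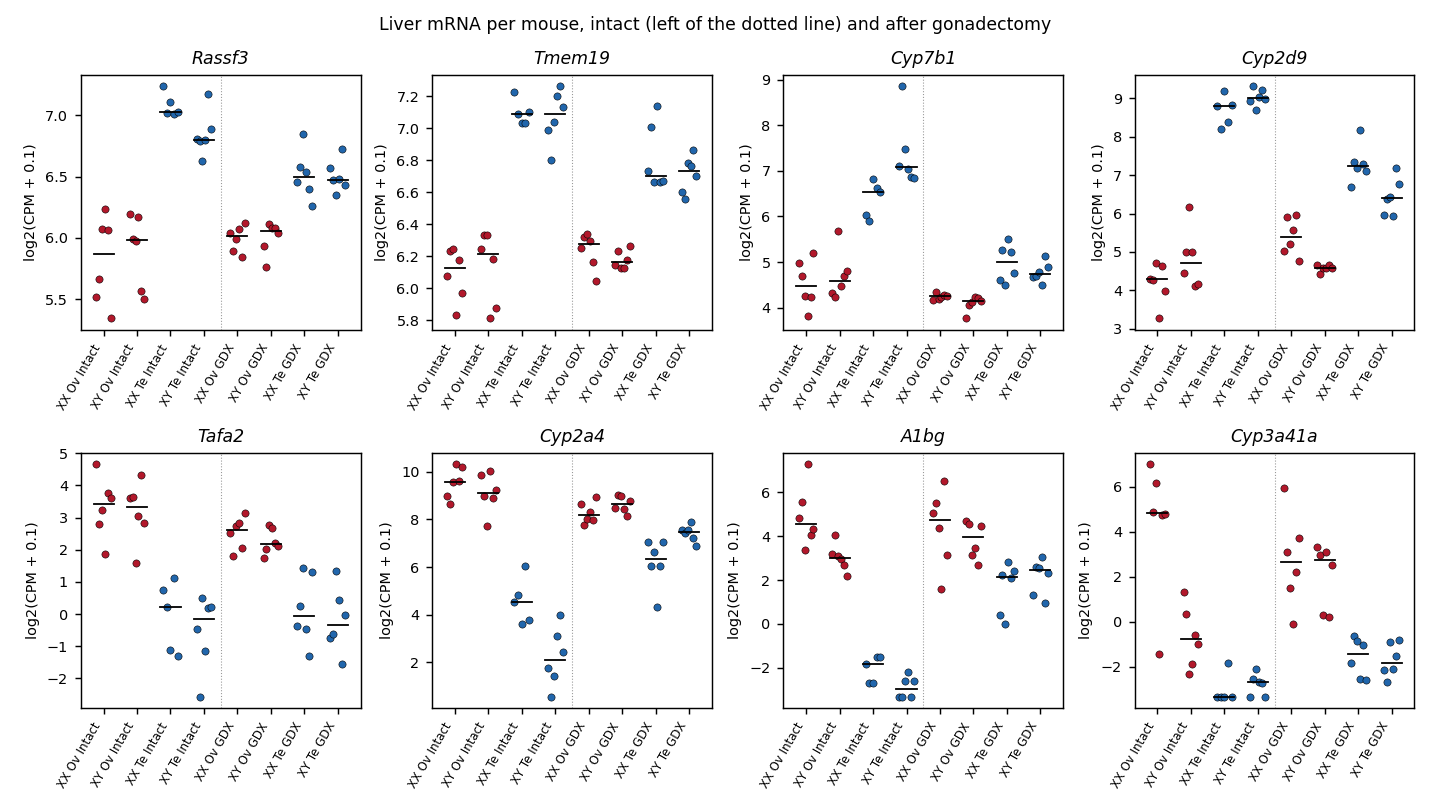
Level of 8 called genes in each mouse (y axis, log2 of CPM + 0.1) in the 4 intact and 4 GDX groups (x axis). Each point is a mouse and each bar a group median; intact XX Te mouse 95271, left out of the intact fits, is not drawn. After GDX the Ov and Te medians lie nearer to each other than in intact mice and still in the same order. The exception is Cyp3a41a in XY mice, where they lie farther apart after GDX.

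The other named genes that were higher in Te were at lower levels or differed less. Susd4, a membrane regulator of complement, was at 0.561 to 4.99 CPM in Ov and at 2.29 to 11.2 CPM in Te (log2 fold change -1.26, edgeR adjusted p = 0.0146). Nat8, an acetyltransferase that completes mercapturic acids, was at 0.21 to 3.06 CPM in Ov and at 0.72 to 10.2 CPM in Te (log2 fold change -1.48, adjusted p = 0.0199). The levels of both overlapped, and all 24 fits with 1 mouse left out kept the calls. Susd4 passed in 5 and Nat8 in 4 of 7 alternative fits, and neither passed in the joint fit of 47 libraries or without the covariate. Serpine2, a protease inhibitor (log2 fold change -0.66, adjusted p = 0.0218), and Mcm10, a DNA replication factor (-0.52, adjusted p = 0.0219), passed in 22 of 24 such fits each, and both missed the threshold without XY Te mouse 59091 or XX Te mouse 93559. Ppp1r9a, an actin-binding scaffold protein (-0.42, adjusted p = 0.0413), passed in 6 of 24. Zfp979, a zinc finger gene outside the naming rule and named after its values were seen, was at 0.102 to 0.749 CPM in Ov and 0.328 to 2.92 CPM in Te (log2 fold change -1.51, adjusted p = 0.00631).

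The genes known to be sex-biased in liver were examined as 2 lists, chosen with earlier results of these data known. Their shares of calls are therefore a description. Of 25 tested male-biased genes, 4 were higher in Te after GDX (Cyp2d9, Cyp7b1, Cyp2u1 and Susd4) and none was higher in Ov, against 0.0875% of all tested genes higher in Te, and the median log2 fold change was -0.38. The median was -0.16 (-0.155 unrounded) without XX Te mouse 69358 and -0.25 without XX Te mouse 93559, with the same number of calls. In intact mice 31 of 33 were higher in Te, with a median of -3.35, against 5.52% of all genes. The intact median covers more genes, because members with too few reads after GDX were not tested there. Of 43 tested female-biased genes, 6 were higher in Ov after GDX (Cyp2a4, Cyp3a16, Cyp3a41a, Cyp3a41b, Cyp3a44 and A1bg) and none was higher in Te, against 0.155% of all tested genes higher in Ov, with a median of 0.21. The calls numbered 5 and the median was 0.15 without mouse 69358, and 3 calls were left without XY Ov mouse 19562 or XY Te mouse 59091. Calls numbered 4 without XX Te mouse 16037, 71064 or 93559. The list medians with each mouse left out were computed after the data had been seen. In intact mice 40 of 44 were higher in Ov, with a median of 3.01, against 5.95% of all genes. Over all tested genes the median was -0.0031 after GDX. For 25 of 33 male-biased and 30 of 45 female-biased genes the gonadal difference itself differed between intact and GDX mice, with a positive sign for all 25 and a negative sign for all 30 (edgeR interaction, adjusted p under 0.05, GDX minus intact), against 5.26% of all 15575 genes tested. In this test 819 genes passed, and 1817 passed without intact XX Ov mouse 69572 and 1426 without intact XX Te mouse 14614.

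**Figure D3:**
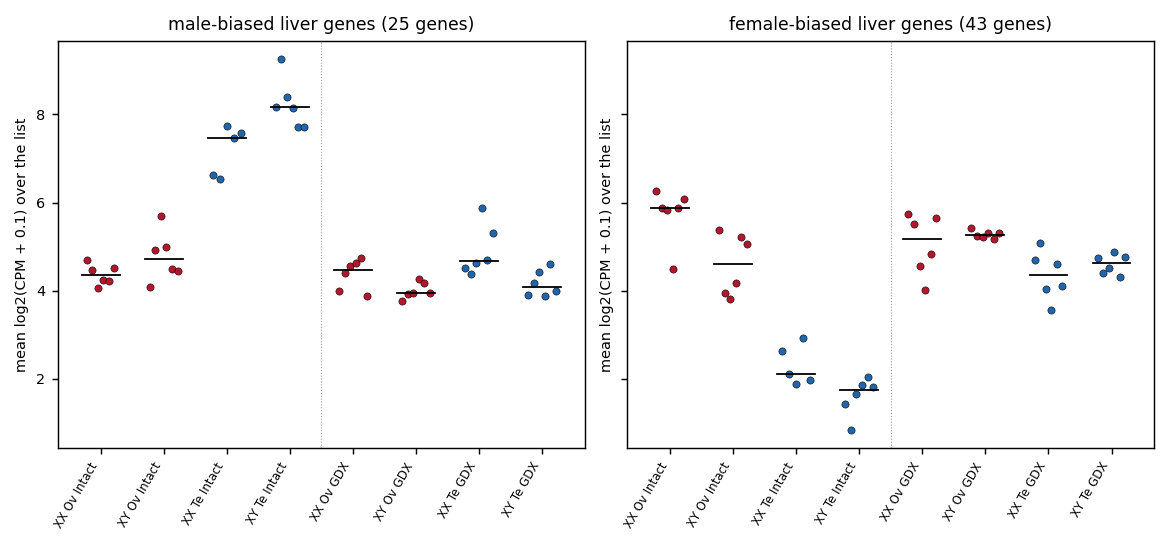
Mean level per mouse of the male-biased and female-biased genes (y axis, mean of log2(CPM + 0.1) over the list) in the 8 groups (x axis). Only the 25 male-biased and 43 female-biased genes tested after GDX enter, in intact mice too. Points are mice and bars medians; the male-biased genes of intact Te mice lie at 6.54 to 9.25, above every GDX mouse, and the highest point after GDX, at 5.88, is XX Te mouse 69358.

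The mean level of the male-biased genes, on a scale of log2(CPM + 0.1), was 3.89, 4.48 and 4.74 (lowest, median, highest) in XX Ov and 4.38, 4.66 and 5.88 in XX Te after GDX. It was 3.76, 3.95 and 4.27 in XY Ov and 3.87, 4.08 and 4.62 in XY Te. All 4 groups overlapped their counterpart and all lay below intact Te mice. Both mean levels cover only the list members tested after GDX, so members with too few reads after GDX are left out in all groups. The female-biased genes were at 4.03, 5.18 and 5.74 in XX Ov and 3.56, 4.36 and 5.08 in XX Te, and at 5.17, 5.27 and 5.43 in XY Ov and 4.30, 4.63 and 4.88 in XY Te. In XY mice all Ov lay above all Te, and all 12 GDX Te mice lay above the intact Te mice, which were at 0.846 to 2.92.

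Most of the genes with the largest gonadal differences in intact mice were not called after GDX. Cyp2c40, a female-predominant P450 enzyme, had a log2 fold change of 6.64 in intact mice and 0.43 (SE 0.293, edgeR adjusted p = 0.826) after GDX. It was at 6.88 to 78.2 CPM in the 12 GDX Te mice and at 0.188 to 6.84 CPM in intact Te mice. GDX Te mice thus overlapped the Ov mice, which had 13.3 to 90.5 CPM after GDX. Cyp4a12a, which hydroxylates arachidonic acid and is known to depend on androgens, had a log2 fold change of -6.76 in intact mice and -0.38 (SE 0.674, adjusted p = 0.952) after GDX. Its level was 30 to 136 CPM in intact Te mice and 0.0619 to 13.1 CPM in GDX Te mice, and the highest value was in mouse 69358, without which the log2 fold change was 0.24.

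Sulfotransferases of the Sult2a family, which conjugate steroids and bile acids, and of the Sult3a family did not pass the test after GDX. Sult2a1 was at 1.21, 38.4 and 161 CPM in XX Ov and 39.5, 104 and 150 CPM in XY Ov, and at 0.644, 19.4 and 131 CPM in XX Te and 2.23, 7.05 and 21 CPM in XY Te. In XY mice every Ov mouse was above every Te mouse and in XX mice the ranges overlapped almost wholly. The log2 fold change over both backgrounds was 1.99 (SE 0.804, edgeR adjusted p = 0.563). In intact mice it was 7.78. For Sult2a3, Sult2a2, Sult2a5 and Sult3a1 it was 2.06 (adjusted p = 0.432), 1.15 (adjusted p = 0.74), 0.90 (adjusted p = 0.842) and 1.39 (adjusted p = 0.366). Their log2 fold changes in intact mice were 8.09, 7.98, 8.34 and 7.19.

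Other targets did not pass after GDX either. The transporter Slco1a1 had a log2 fold change of -0.30 (SE 0.331) against -5.05 in intact mice, and the fatty acid elongase Elovl3 one of -0.21 (SE 0.238) against -4.62. Without XX Te mouse 69358 these were -0.19 and 0.027. The 7 tested urinary protein genes of the male-biased list ranged from -1.16 (Mup11) to -0.30 (Mup3), and none passed. Among these, the log2 fold changes were -1.16 (Mup11, SE 0.574, edgeR adjusted p = 0.684), -0.996 (Mup1), -0.64 (Mup20) and -0.61 (Mup7), against -5.47, -4.72, -5.09 and -5.63 (-5.635 unrounded) in intact mice. Mup14, whose symbol the list does not name, was at -0.38 against -5.36 in intact mice. Without mouse 69358 the log2 fold changes after GDX were -0.45 (Mup11), -0.39 (Mup1), -0.63 (Mup20), -0.03 (-0.03026 unrounded, Mup7) and 0.22 (Mup14).

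Across the 14010 genes tested in both cohorts, Pearson's r of the log2 fold changes after GDX and in intact mice was 0.374 and Spearman's rho 0.0259. Both are across genes, which are not independent replicates, and serve as a description. Of 1576 genes called in intact mice and tested after GDX, 985 (62.5%) had the same sign after GDX, against 46.8% of the 12434 genes not called in intact mice. The share was larger where the intact difference was larger, at 58.7% of 1156 genes with an absolute log2 fold change under 1, 69.3% of 313 between 1 and 2, 77.6% of 67 between 2 and 4, and 92.5% of 40 above 4. In that last class the median log2 fold change was 5.38 in intact mice and, in the same direction, 0.96 after GDX, and 9 of the 40 genes (22.5%) were called after GDX. In all, 30 genes were called in both cohorts, each in the same direction. The intact libraries had fewer reads outside annotated genes, 3.47% to 6.2% against 8.52% to 11.3% after GDX, and the part of this in the comparison of cohorts was not tested.

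**Figure D4:**
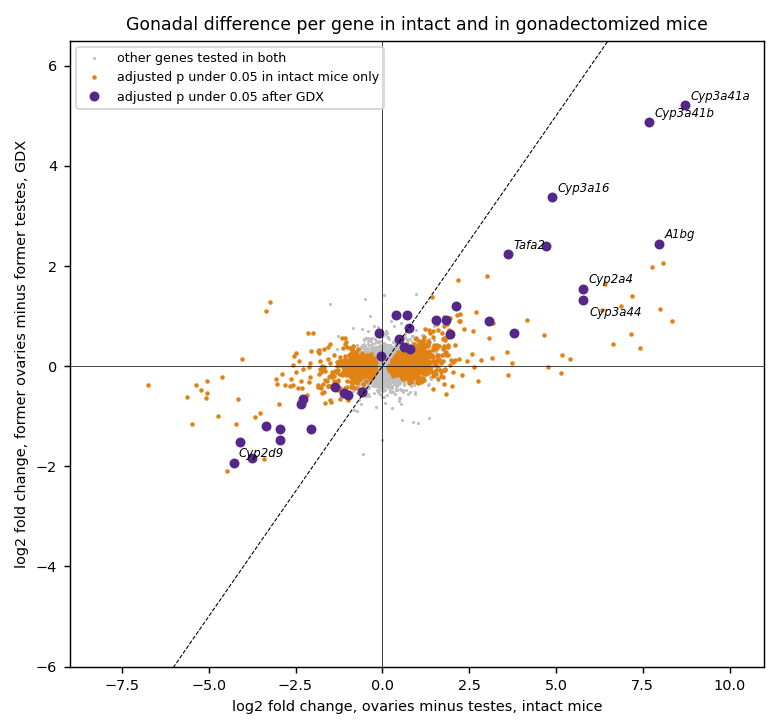
Log2 fold change (Ov minus Te) per gene in intact mice (x axis) and in GDX mice (y axis) for 14010 genes. Purple points are genes called after GDX, orange points those called in intact mice only, grey points the other genes, and the dashed line marks equal values; the 40 genes beyond 4 in intact mice have a median of 0.96 in the same direction after GDX.

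Of 35 genes called after GDX and tested in intact mice, 5 were not called there. Dpyd, Col15a1 and Acad9 among them were named after their values were seen, and Gm13775 and Mup-ps16 by the naming rule. Dpyd, the enzyme that starts the breakdown of pyrimidines, was at 603, 693 and 790 CPM in XX Ov and at 600, 637 and 692 CPM in XY Ov. It was at 336, 413 and 701 CPM in XX Te and at 323, 363 and 564 CPM in XY Te. One XX Te mouse, 00575, overlapped the Ov mice, and the other 11 Te mice were below all of them. Its fitted log2 fold change was 0.66 (SE 0.106, edgeR adjusted p = 0.00221), against -0.11 in intact mice (adjusted p = 0.522), and the difference between cohorts passed the test (log2 0.74, adjusted p = 0.00236). Intact mice of all groups had 268 to 550 CPM, so all GDX Ov mice were above the intact range, as were Te mice 00575 and 59091.

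Col15a1, a collagen of basement membranes, was at 14.5 to 30.9 CPM in Ov and 8.78 to 16.5 CPM in Te, with a log2 fold change of 0.55 (SE 0.101, edgeR adjusted p = 0.0101) that was 0.49 in intact mice (adjusted p = 0.12). Acad9, which assembles respiratory complex I, differed by a log2 of only 0.19 (SE 0.0387, adjusted p = 0.0218). The noncoding gene Gm13775 and the pseudogene Mup-ps16 were higher in Ov by log2 values of 1.02 and 1.03 (adjusted p = 0.031 and 0.0413). Their differences were 1.71 and 1.69 in XY mice and 0.48 and 0.52 in XX mice. The calls held in 12 and 7 of 24 fits with 1 mouse left out. By its name Mup-ps16 is a copy of a MUP gene, and reads may be shared within that family.

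In Ov, 3 named genes of T and natural killer cells were higher. Gimap3, a GTPase of lymphocytes that shares stretches of its transcript with a related gene, was at 3.23, 5.77 and 6.82 CPM in XY Ov and 1.4, 2.52 and 4.33 CPM in XY Te, and at 1.72, 2.39 and 2.94 CPM in XX Ov and 0.763, 1.31 and 1.9 CPM in XX Te. The groups overlapped in both backgrounds, and the group medians were higher in Ov. Its log2 fold change was 0.93 (SE 0.159, edgeR adjusted p = 0.00432). Il2rb, a receptor chain for interleukins 2 and 15, had one of 0.92 (adjusted p = 0.0245), and Cxcr6, a chemokine receptor of liver T and natural killer cells, one of 0.90 (adjusted p = 0.0346). Ov and Te overlapped for all 3 genes. The calls of Il2rb and Cxcr6 held in 20 and 10 of 24 fits with 1 mouse left out.

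No gene of the lymphocyte marker list, which does not hold these 3 genes, passed the test. Of 17 tested, 13 were on the side of Ov and the median log2 fold change was 0.54, with Cd3e at 1.04 (edgeR adjusted p = 0.243) and Cd2 at 0.98 (adjusted p = 0.171). The granzyme genes Gzma and Gzmb were on the side of Te, at -0.81 and -0.73 (adjusted p = 0.413 and 0.421). The summed level of the 21 markers was 16.8 to 134 CPM in XX Ov, 18 to 32.7 CPM in XX Te, 71.5 to 233 CPM in XY Ov and 68.3 to 302 CPM in XY Te. Their part in the differences of the 3 called genes was not tested. In intact mice 10 of 19 tested markers were higher in Ov and 1 in Te, against 5.95% and 5.52% of all genes.

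**Figure D5:**
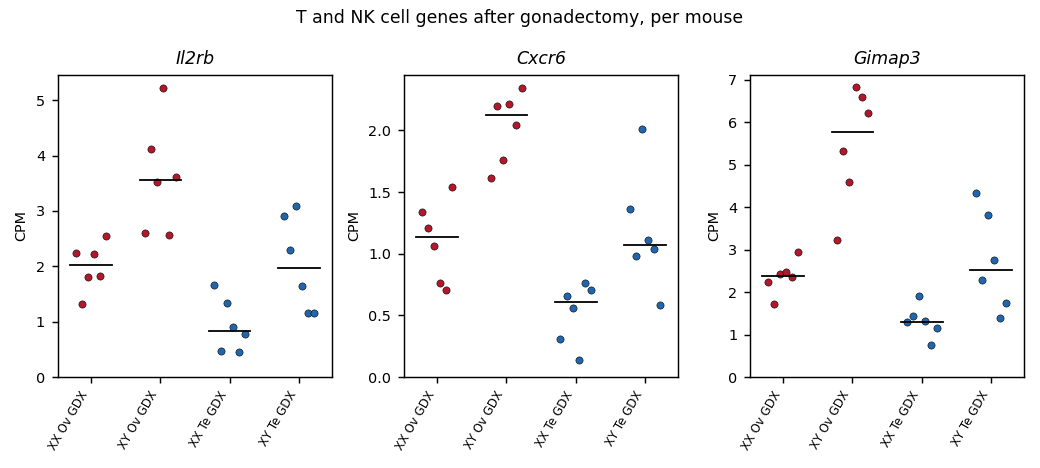
CPM (y axis, from 0) of Il2rb, Cxcr6 and Gimap3 in each GDX mouse, by group (x axis); points are mice and bars medians. In both backgrounds the median of Ov is above that of Te, and the median of XY mice is above that of XX mice with the same former gonad.

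The gene lists of lipid metabolism held 1 called gene. Cd36, a transporter for fatty acid uptake, was at 341, 373 and 404 CPM in XX Ov and 238, 280 and 328 CPM in XY Ov, against 233, 310 and 418 CPM in XX Te and 192, 207 and 234 CPM in XY Te. In XY mice Ov and Te did not overlap and in XX mice they did. The log2 fold change was 0.34 (SE 0.0693, edgeR adjusted p = 0.0219), 1.27-fold, and it missed the threshold without XY Te mouse 59091 (adjusted p = 0.0518). In intact mice it was 0.81. No other of 27 tested genes of lipid droplets and triglyceride storage passed, and neither did any of 24 genes of lipogenesis (median 0.07), 25 of cholesterol synthesis (median 0.07) or 32 of fatty acid oxidation and PPARalpha. In the last list 29 of 32 genes were on the side of Ov, with a median of 0.16. Among the members with the lowest unadjusted p, named after their values were seen, Cpt1a, which admits fatty acids to mitochondria, was at 0.21 (adjusted p = 0.404) and Vnn1, a known PPARalpha target, at 0.41 (adjusted p = 0.254). The triglyceride hydrolase gene Pnpla3 was at 0.10 (SE 0.451), a value whose sign turned when any of 4 mice was left out.

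The hormone axis itself showed no called gene after GDX. None of 32 tested genes of the growth hormone and STAT5 axis passed (median -0.0061), and none of 11 receptors for sex steroids and prolactin. Cux2 was at -0.14 after GDX against 5.15 in intact mice, and Bcl6 at 0.34 (SE 0.227, edgeR adjusted p = 0.821) against -1.67. The oestrogen receptor gene Esr1 was at 0.18 (adjusted p = 0.765) and the prolactin receptor gene Prlr at 0.04 (adjusted p = 0.97). The intact values of Esr1 and Prlr were 1.02 and 1.14. Of 27 tested genes of steroid metabolism and 25 of bile acid synthesis and transport only Cyp7b1 passed, a member of both lists.

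Of the remaining lists none held a called gene after GDX. Among 28 interferon-stimulated genes 27 were on the side of Ov, with a median of 0.16, and in intact mice 16 of them were higher in Ov, with a median of 0.78, against 5.95% of all genes. The medians were 0.32 for 9 genes of MHC class II, 0.03 for 19 markers of Kupffer cells and macrophages, 0.19 for 9 of neutrophils, 0.15 for 20 of stellate cells and matrix, -0.05 for 15 of sinusoidal endothelium, -0.03 for 7 of cholangiocytes, -0.33 for 4 of adipocytes and -0.06 for 16 of hepatocytes. They were 0.08 for 21 cell cycle genes, -0.01 for 18 circadian clock genes, -0.06 for 23 acute phase proteins, -0.06 for 27 complement components and -0.04 for 9 sex-linked check genes. Of 143 tested genes that the study had listed as sex-biased in their response to diet, none passed and the median was 0.02.

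Another 6 called genes that were higher in Ov included Slc39a5, a zinc transporter (log2 fold change 0.75, edgeR adjusted p = 0.0413, passing in 5 of 24 fits with 1 mouse left out). The rest were outside the naming rule and named after their values were seen. Det1, a component of a ubiquitin ligase, was at 10.5 to 13.8 CPM in Ov and 8.02 to 11.6 CPM in Te (log2 fold change 0.38, adjusted p = 0.00441). Rsph4a, a protein of ciliary radial spokes, was at 0.67 (adjusted p = 0.0199) against 3.80 in intact mice, and 9030619P08Rik at 0.64 (adjusted p = 0.00221) against 1.96. Pla2g4f, a cytosolic phospholipase, was at 0.861 to 3.40 CPM in XX Ov and at or below 0.671 CPM in the other 3 groups (log2 fold change 1.80, adjusted p = 0.0331). Its call held in 13 of 24 fits with 1 mouse left out, and not in the joint fit or without the covariate. The last of the 6 and 2 genes that were higher in Te had identifiers with no symbol in the tables used, and their log2 fold changes were 2.41 (ENSMUSG00000106040), -1.83 (ENSMUSG00000112527) and -1.25 (ENSMUSG00000112539).

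The remaining difference had the same sign in both backgrounds for all 36 called genes. These genes were called in XX and XY mice together, which itself favours equal signs, so this count is only a description. Tested in XX mice alone, 9 genes passed (0.0606% of the genes tested), and in XY mice alone 7 passed (0.0471%), with Rassf3, Tmem19, Cyp2d9 and Tafa2 in both. The count in XX mice was 3 without XX Ov mouse 87592, 4 without XX Te mouse 69358, 5 without XX Te mouse 16037 or 71064, and 21 without XX Te mouse 37517, and that in XY mice was 11 without XY Te mouse 28605 or XX Te mouse 69358. The 2 tests share a fit and not their mice. For no gene did the gonadal difference itself differ between XX and XY mice by edgeR (interaction, smallest adjusted p = 0.787) or by DESeq2, and 451 genes had an unadjusted p under 0.05. Of all 14857 genes, 5 had no overlap in CPM between the 12 Ov and 12 Te mice (0.0337%), and all 5 were called: Rassf3, Tmem19, Cyp7b1, Tafa2 and Cyp3a41a. After TMM scaling 4 had none (0.0269%), and Rassf3, Tafa2 and Cyp3a41a were among them.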

How the data were processed

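RNA was measured in 48 livers, 1 mouse per library. The authors deposited raw counts of reads per gene for the whole series (55414 identifiers, of which 31020 were matched to a symbol); the submitters' processing notes name STAR 2.7.10a, DESeq2 1.36.0 and genome build GRCm39, and the annotation release and strand setting are not given in the sources used here. The 4 lines that summarize unassigned reads stayed out of library sizes and tests. Differences were tested here in R 4.3.3 with edgeR 4.0.16 (TMM factors, filterByExpr by genotype, robust quasi-likelihood F test, Benjamini-Hochberg adjustment over all genes tested). The design was former gonad plus XX or XY background in the 24 GDX libraries. XX and XY contrasts and their interaction came from 4 genotype means. The intact fit used 23 libraries, leaving out XX Te mouse 95271, which the study leaves out, and the gonad by GDX interaction used 47. Log2 fold changes are Ov minus Te, and SEs and intervals (95%) come from the fit; intervals and the 3-read floor cover counting error only where they refer to a single library.

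Libraries are separate mice, and litters and cages are not given. The 60 pairs of GDX replicates differed by more than counting noise, so none was counted as a duplicate. In simulated counts for this comparison, with 200 of 14857 genes changed, 88 of 94 genes with an absolute log2 change of 1 and 106 of 106 with one of 2 were called, with 3 false calls. These counts took their spread from the fit itself, held no difference between XX and XY mice and included no smaller changes. They check the running of the fit and do not give the share of real differences that it calls. The genes and 27 gene lists were chosen with earlier results of these data known. Named genes were the 10 largest and 10 smallest log2 fold changes among called genes after GDX whose average log2 CPM was 0 or more, and likewise in intact mice, list members that passed in a gonad contrast or interaction after GDX, and a fixed set of checks; 8 further called genes with a symbol were named after their values were seen. A few genes, 1 of them called, are not reported here. Upstream sequences are from RefSeq (GRCm38.p6), and transcripts for the 50-base comparison and chromosomes are from NCBIM37. Alternatives were DESeq2 1.42.0, other size factors and filters, 1 surrogate variable (sva 3.50.0), no covariate, a joint fit, and each mouse left out in turn.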

Additional observations from a re-analysis of the deposited data

Results flagged for a closer look

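Of 182 group values examined after GDX, 16 stood apart from the other 5 mice of the group by the gap to the nearest, and chance gives about 1 in 20 such cases. Among genes higher in Te, XX Te mouse 69358 had the highest Cyp2d9 level, 287 CPM, XX Ov mouse 87592 the lowest Cyp2u1 level of its group, 2.81 CPM, XY Te mouse 59091 the highest Cyp2u1 level of its group, 10.3 CPM, and XY Te mouse 28605 the highest Zfp979 level of its group, 1.44 CPM. Among genes higher in Ov, XX Ov mouse 11059 was far above its group in Cyp3a41a at 61.9 CPM, in Cyp3a41b at 18.1 CPM and in ENSMUSG00000106040 at 3.40 CPM (3.395 unrounded). In XX Te mouse 93559 Cyp3a44 was at 0.708 CPM, in XY Te mouse 69848 Slc39a5 was at 2.90 CPM, and in XY Ov mouse 72268 Col15a1 was at 19.7 CPM, each the highest of its group. Dpyd was at 701 CPM in XX Te mouse 00575 and at 564 CPM in XY Te mouse 59091, far above the other mice of these groups and near Ov mice. Of the fixed set of checks, Cux2 was at 67.1 CPM in XX Te mouse 16037, Bcl6 at 65.6 CPM in XY Te mouse 13306 and Pnpla3 at 5.89 CPM in XY Te mouse 30544, each the highest of its group. Prlr was at 342 CPM in XY Te mouse 59091, the lowest of its group.

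For 18 of the 36 called genes the gonadal difference differed between GDX and intact mice (edgeR interaction, adjusted p under 0.05), and the values that follow are the log2 fold change (Ov minus Te) after GDX minus that in intact mice. For genes higher in Ov they were -5.37 (A1bg), -4.35 (Cyp3a44), -4.24 (Cyp2a4), -3.19 (-3.185 unrounded; Rsph4a), -2.16 (Cxcr6) and -1.35 (9030619P08Rik). For genes higher in Te they were 2.68 (Zfp979), 2.33 (Cyp2d9), 2.10 (Cyp2u1), 1.86 (ENSMUSG00000112527), 1.73 (Susd4), 1.58 (Serpine2), 1.56 (Nat8), 1.53 (Cyp7b1), 0.91 (Ppp1r9a), 0.56 (Rassf3) and 0.38 (Tmem19). In these 17 the difference was smaller after GDX. Dpyd, at 0.74, was the exception: it differed between Ov and Te after GDX and not in intact mice. Intact and GDX mice also differed in weeks on HFD.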

How the results depend on the processing

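The 36 calls after GDX became 18 with at least 10 counts in every library (fewer genes tested), 66 with DESeq2, 14 in a joint fit of 47 libraries with 8 group means, 17 without the XX or XY covariate and 1106 with unadjusted p; 53 passed with 1 surrogate variable, and they numbered 22 to 48 with 1 mouse left out. The 9 calls in XX mice became 39 and the 7 in XY mice 22 with DESeq2, and ranged from 3 to 21 and from 5 to 11 with 1 mouse left out. The interaction of background and gonad gave 0 calls under every alternative run. The 1658 calls in intact mice became 3875 in the joint fit, 3718 with 1 surrogate variable and 988 with a fold change above 1.5, and 1131 to 2538 with 1 mouse left out. The 819 calls of the gonad by GDX interaction became 478 without the filter on low counts and 590 to 1817 with 1 mouse left out. Other causes of these changes were not tested. No paired analysis was possible because the groups share no replicate numbers.

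Of the 36 called genes, 20 passed in every fit with 1 mouse left out, and none changed sign. Of these 20, 9 also passed in every alternative fit that tested them (Rassf3, Tmem19, Cyp2d9, Tafa2, Cyp2a4, Cyp3a41a, Cyp3a41b, Dpyd and ENSMUSG00000112527). A further threshold, a fold change above 1.5, left 28 of the 36 calls. Rassf3 and Tmem19, with log2 fold changes of -0.53 and -0.58, were below it. Signs turned only in genes that were not called. With 1 mouse left out their log2 fold changes ranged from -0.85 to 0.24 (Cyp4a12a), -0.51 to 0.22 (Mup14) and -0.30 to 0.027 (Elovl3), each positive without XX Te mouse 69358, -0.23 to 0.091 (Cux2, positive without XX Te mouse 16037), -0.0084 to 0.11 (Prlr, negative without XX Te mouse 37517), -0.23 to 0.043 (Xist, positive without XY Te mouse 69848) and -0.15 to 0.43 (Pnpla3, negative without XX Ov mouse 29264, XY Ov mouse 63079 or 99639, or XY Te mouse 69848). Xist was at 0.06 (0.0598) without the covariate and Uty at 0.27 in the joint fit. Sult3a1 passed, at 1.84, without XX Te mouse 00575. Levels near 3 reads, as for Cyp3a41a in Te, limit the precision of those fold changes.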
